A study of Homo sapiens with 24 samples.

Results

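The genes described here encode collagens, laminins and fibronectin, the structural proteins of the extracellular matrix, as measured in the established liver cancer line HepG2, of human origin. The list held 9 genes, COL2A1, COL4A1, COL4A2, COL18A1, LAMA5, LAMB1, LAMC1, LAMC3 and FN1, each found in the count table by its NCBI gene ID. A row was present for 8 of them among 11927 genes, COL4A1 had none and was not analysed here, and 7 were among the 11152 genes tested. COL4A2 was below the filter on low counts. The genes were chosen from results of these same libraries, and which values led to the choice was not recorded. The comparisons of the KEAP1 guides with the control guide under siNC are therefore given as a description, with no p-value for these genes, and how many were past the threshold there is given once, with nothing read from it. The other comparisons were also known when the genes were chosen, so their p-values for these genes may not be independent of the choice.

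Cells had been transduced with a lentiviral CRISPR construct and selected with puromycin, and whether single clones were taken is not given in the sources used here. The guide sgCtrl cuts the AAVS1 safe-harbour site, while sgKeap1-1 and sgKeap1-2 cut KEAP1, the adaptor through which the transcription factor NRF2 is degraded. All groups thus carried a guide and were also transfected, either with a non-targeting siRNA (siNC) or with pools of siRNAs targeting TFEB together with TFE3 (sitfeb/sitfe3), which encode related activators of lysosomal genes. RNA was taken 72 h after transfection in 6 groups of 4 libraries, and the question was how KEAP1 loss and the knockdown changed RNA levels. The labels do not say whether the 4 libraries of a group came from separate cultures, so the p-values measure the spread between these libraries, which may be technical.

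Laminins are cross-shaped trimers of an alpha, a beta and a gamma chain and, with sheets of type IV collagen, form the basement membrane on which epithelial cells sit. LAMA5, LAMB1 and LAMC1 encode an alpha, a beta and a gamma chain that can assemble with each other, and LAMC3 encodes an alternative gamma chain. COL2A1 encodes the fibrillar collagen of cartilage, COL18A1 a basement membrane collagen whose fragment is endostatin, and COL4A1 and COL4A2 the most widespread type IV collagen chains. Fibronectin (FN1) is an adhesive glycoprotein that hepatocytes secrete into plasma and that integrins bind.

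Total reads per library ranged from 3527000 to 4600951. The libraries were sequenced from the 3′ end of transcripts, so counts were scaled to library size alone, as CPM (a gene's reads over the TMM-scaled total of the library). On the second principal component, which held 11.7% of the variance, 2 libraries stood apart from the rest, namely replicate 1 of siNC; sgKeap1-1 and, among the knockdown libraries, replicate 1 of sgKeap1-2. Under siNC, KEAP1 RNA had a log2 fold change of -0.66 with sgKeap1-1 (adjusted p = 1.02e-04, limma) and of -0.14 with sgKeap1-2, which did not pass, and a count of 3′ reads does not show whether a guide cut its site. TFE3 fell with the knockdown in all 3 guide backgrounds (log2 fold changes -1.74 to -1.57), and TFEB was at -1.96 in sgCtrl (adjusted p = 0.0858, limma) and passed in the other 2. Hepatocyte markers were present, with 10 of 10 in the table, and their summed level was 25613 to 36838 CPM in the 8 sgCtrl libraries and 14236 to 20965 CPM in the 16 libraries with a KEAP1 guide. Of 8 fibroblast markers 3 had a row, summing to 51.1 to 88.2 CPM, and the defining COL1A2, COL3A1, DCN, LUM and THY1 had none. Of 5 macrophage markers 2 had a row (2.36 to 8.41 CPM), and none of 5 endothelial markers had one. In bulk RNA, fewer cells of a kind and less RNA per cell cannot be told apart.

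The promoters of FN1, LAMB1 and LAMC1 are shown because the first 2 genes were higher with the KEAP1 guides while LAMC1, the gamma chain gene that can pair with LAMB1, did not pass the threshold in any comparison. RefSeq promoter windows (GRCh38.p14, 250 bases before to 50 after the start of transcription) were at hand for 7 of the 9 genes, and COL2A1 and LAMC3 were not among them. COL18A1 had 2 windows, so 8 were searched. Each is written 5′ to 3′ on the gene's strand, with GC boxes (GGGCGG), the CCAAT box (CCAAT) and the cAMP response element (TGACGTCA) in capitals, found on both strands. These are FN1 at chr2:215436019-215436318 on the minus strand, LAMB1 at chr7:108003112-108003411 on the minus strand and LAMC1 at chr1:183023170-183023469 on the plus strand.
FN1: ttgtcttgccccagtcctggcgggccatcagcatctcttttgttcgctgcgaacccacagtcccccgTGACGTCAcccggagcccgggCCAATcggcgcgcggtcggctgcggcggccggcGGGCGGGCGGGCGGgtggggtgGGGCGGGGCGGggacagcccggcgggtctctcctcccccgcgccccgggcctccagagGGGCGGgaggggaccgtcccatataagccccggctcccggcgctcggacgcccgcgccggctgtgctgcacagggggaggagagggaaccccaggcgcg
LAMB1: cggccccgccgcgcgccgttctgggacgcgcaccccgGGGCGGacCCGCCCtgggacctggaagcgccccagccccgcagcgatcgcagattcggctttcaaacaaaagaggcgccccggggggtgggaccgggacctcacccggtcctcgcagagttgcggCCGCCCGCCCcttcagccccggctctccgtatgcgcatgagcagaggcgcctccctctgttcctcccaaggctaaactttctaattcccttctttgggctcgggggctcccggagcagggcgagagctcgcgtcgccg
LAMC1: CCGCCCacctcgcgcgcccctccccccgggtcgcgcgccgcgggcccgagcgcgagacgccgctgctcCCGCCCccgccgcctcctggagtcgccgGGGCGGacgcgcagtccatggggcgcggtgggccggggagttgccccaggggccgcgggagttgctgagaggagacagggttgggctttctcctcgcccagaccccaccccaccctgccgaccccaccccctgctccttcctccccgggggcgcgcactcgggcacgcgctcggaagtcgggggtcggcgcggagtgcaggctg

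The FN1 window held 6 GC boxes, 1 CCAAT box and 1 cAMP response element. The LAMB1 window held 4 GC boxes and the LAMC1 window 3, and neither had the other motifs. Some of the GC boxes of FN1 and LAMB1 overlap each other. All 7 genes had a GC box, against 45.0% of 35116 promoters of the same length, whereas the cAMP response element was in 1 of the 7 and in 1.85% of all. The windows searched were 66.3% to 86.7% G or C, against a median of 58.7% over all promoters, so the base composition differed as well. The core of the antioxidant response element bound by NRF2, searched as TGACNNNGC and TGAGNNNGC, was in no window of the 7 genes and in 13.3% and 18.3% of all promoters. The E-box bound by MiT/TFE factors (CACGTG) was also in none, against 7.26% of all, as was the AP-1 site (TGANTCA), against 7.71%. The absence of a match says only that these letters do not occur in these windows.

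COL2A1 was lower in every library with a KEAP1 guide than in any sgCtrl library. The gene lies at chr12:48366750-48398337 on the minus strand (GRCh37). Under siNC, sgCtrl replicates 1 to 4 had 72, 116, 101 and 148 reads, or 18.3, 28.9, 29.0 and 34.9 CPM. The sgKeap1-1 libraries had 29, 14, 11 and 22 reads (7.31, 3.89, 2.77 and 5.30 CPM), and the sgKeap1-2 libraries had 11, 13, 15 and 21 reads (3.11, 3.50, 3.39 and 4.83 CPM). Neither guide overlapped the control, and the guides overlapped each other. The mean fell from 27.8 ± 6.92 CPM (SD, n = 4) to 4.82 ± 1.96 with sgKeap1-1 and 3.71 ± 0.769 with sgKeap1-2, log2 fold changes of -2.54 (SE 0.30) and -2.84 (SE 0.33).

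Under sitfeb/sitfe3 the same order was seen. The sgCtrl libraries had 86, 158, 145 and 135 reads of COL2A1 (22.6, 38.1, 33.6 and 33.4 CPM), the sgKeap1-1 libraries 35, 35, 20 and 38 (9.67, 8.23, 5.35 and 8.41 CPM) and the sgKeap1-2 libraries 11, 15, 9 and 10 (3.40, 3.69, 2.04 and 2.32 CPM). Here the 3 groups did not overlap at all. COL2A1 fell to 0.249 of the sgCtrl level with sgKeap1-1 (95% interval of the log2 fold change -2.51 to -1.50, adjusted p = 2.30e-06, limma). With sgKeap1-2 it fell to 0.0902 of that level (-4.21 to -2.73, adjusted p = 6.45e-08, limma). These tests use other libraries than the siNC comparisons, but the gene was chosen with all of them known. Across the 6 groups the ranges of COL2A1 parted at 1 place only, between siNC; sgCtrl and sitfeb/sitfe3; sgKeap1-1.

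LAMC3 showed the opposite pattern and went from almost no reads to a low but measurable level. The gene lies at chr9:133884561-133969860 on the plus strand (GRCh37). Under siNC, sgCtrl replicates 1 to 4 had 2, 2, 0 and 0 reads, the sgKeap1-1 libraries 32, 26, 48 and 40 and the sgKeap1-2 libraries 28, 71, 86 and 69. All 8 libraries with a KEAP1 guide were above all 4 control libraries. The level was 9.25 ± 2.13 CPM (SD, n = 4) with sgKeap1-1 and 15.6 ± 5.36 CPM with sgKeap1-2. The control group held 4 reads in all, and the ratio of summed, depth-scaled counts to it was 36.4 (95% counting interval 13.9 to 136) with sgKeap1-1 and 62.1 (23.95 to 229.6) with sgKeap1-2. The fitted log2 fold changes of 5.02 (SE 0.82) and 5.72 (SE 0.81) depend on the small value added to each count.

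Under sitfeb/sitfe3, LAMC3 had 3, 0, 0 and 5 reads with sgCtrl, 21, 24, 23 and 25 with sgKeap1-1 and 36, 40, 62 and 46 with sgKeap1-2. The ratio of summed, depth-scaled counts to sgCtrl was 11.7 (95% counting interval 5.72 to 28.0) with sgKeap1-1 and 23.4 (11.6 to 55.0) with sgKeap1-2. The fitted log2 fold changes were 4.05 and 5.02 (SE 0.78 and 0.77), and leaving out single libraries moved them to between 3.49 and 4.66 and between 4.46 and 5.62, lowest without sitfeb/sitfe3; sgCtrl replicate 3 and highest without replicate 4 of that group. The gene passed the filter only through the groups with a KEAP1 guide, so its test was tilted toward a difference and no p-value is given. Its level parted below siNC; sgKeap1-1 and again below sitfeb/sitfe3; sgKeap1-1, and the other neighbouring groups overlapped.

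FN1 was among the most counted genes of the cell line, ranking between 1 and 16 by reads in the 24 libraries and taking 0.469% to 1.11% of the reads in named genes. It lies at chr2:216225163-216300796 on the minus strand (GRCh37). Under siNC the sgCtrl libraries had 17982, 28662, 22217 and 28678 reads, the sgKeap1-1 libraries 35907, 34425, 39211 and 35081, and the sgKeap1-2 libraries 33614, 41895, 42239 and 46003. Scaled to library size, every library with a KEAP1 guide was above every control library. The mean was 6214 ± 1142 CPM (SD, n = 4) with sgCtrl, 9232 ± 615 with sgKeap1-1 and 10224 ± 863 with sgKeap1-2, log2 fold changes of 0.59 and 0.74 (SE 0.12 for both).

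With the knockdown, FN1 stood at 5631 ± 1035 CPM (SD, n = 4) with sgCtrl, 8413 ± 861 with sgKeap1-1 and 9619.6 ± 919 with sgKeap1-2. The lowest value with a KEAP1 guide was 7549 CPM and the highest sgCtrl value 7043 CPM, so the groups did not overlap. FN1 rose 1.51-fold with the first guide (log2 0.59, adjusted p = 0.00176, limma). With the second it rose 1.72-fold (log2 0.79, adjusted p = 3.45e-05, limma). As for COL2A1, the gene was chosen with these libraries known. The only break in the order of the 6 groups was between sitfeb/sitfe3; sgKeap1-1 and siNC; sgCtrl.

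LAMB1, the beta chain gene at chr7:107564244-107643658 on the minus strand (GRCh37), was higher in most libraries with a KEAP1 guide. Under siNC the sgCtrl libraries had 792, 968, 815 and 966 reads (201, 241, 234 and 228 CPM). The sgKeap1-1 libraries had 898, 1206, 1159 and 1411 reads (226, 335, 291 and 340.2 CPM), and the sgKeap1-2 libraries 1069, 1492, 1704 and 1399 (302, 402, 385 and 322 CPM). Replicate 1 of sgKeap1-1, 1 of the libraries that stood apart, lay among the controls, and every other library with a KEAP1 guide was above them. The log2 fold change was 0.38 (SE 0.14) with sgKeap1-1 and 0.63 (SE 0.14) with sgKeap1-2. Without both libraries that stood apart, the value for sgKeap1-1 was 0.52.

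Under sitfeb/sitfe3, LAMB1 was at 222, 255, 279.8 and 239 CPM with sgCtrl, at 292, 356, 395 and 331 CPM with sgKeap1-1 and at 554, 363, 445 and 371 CPM with sgKeap1-2. All 8 libraries with a KEAP1 guide were above the 4 controls. LAMB1 rose 1.38-fold with the first guide (log2 0.46, adjusted p = 0.0308, limma) and 1.72-fold with the second (log2 0.78, adjusted p = 1.59e-04, limma). This gene, too, was chosen with these libraries known. The call for the first guide was lost when any 1 of 6 libraries was left out, sitfeb/sitfe3; sgCtrl replicates 1, 2 and 4 or sitfeb/sitfe3; sgKeap1-1 replicates 2, 3 and 4, with adjusted p-values of 0.0520 to 0.117 and log2 fold changes of 0.39 to 0.48. For the second guide, replicate 1 of sgKeap1-2, at 554 CPM, is 1 of the libraries that stood apart. The log2 fold change with this guide ranged from 0.66 to 0.86 when single libraries were left out. It ranged from 0.60 to 0.80 in 11 other fits that changed the tool, the settings or the libraries, and the call was kept throughout. All neighbours in the order of the 6 groups overlapped.

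**Figure D1:**
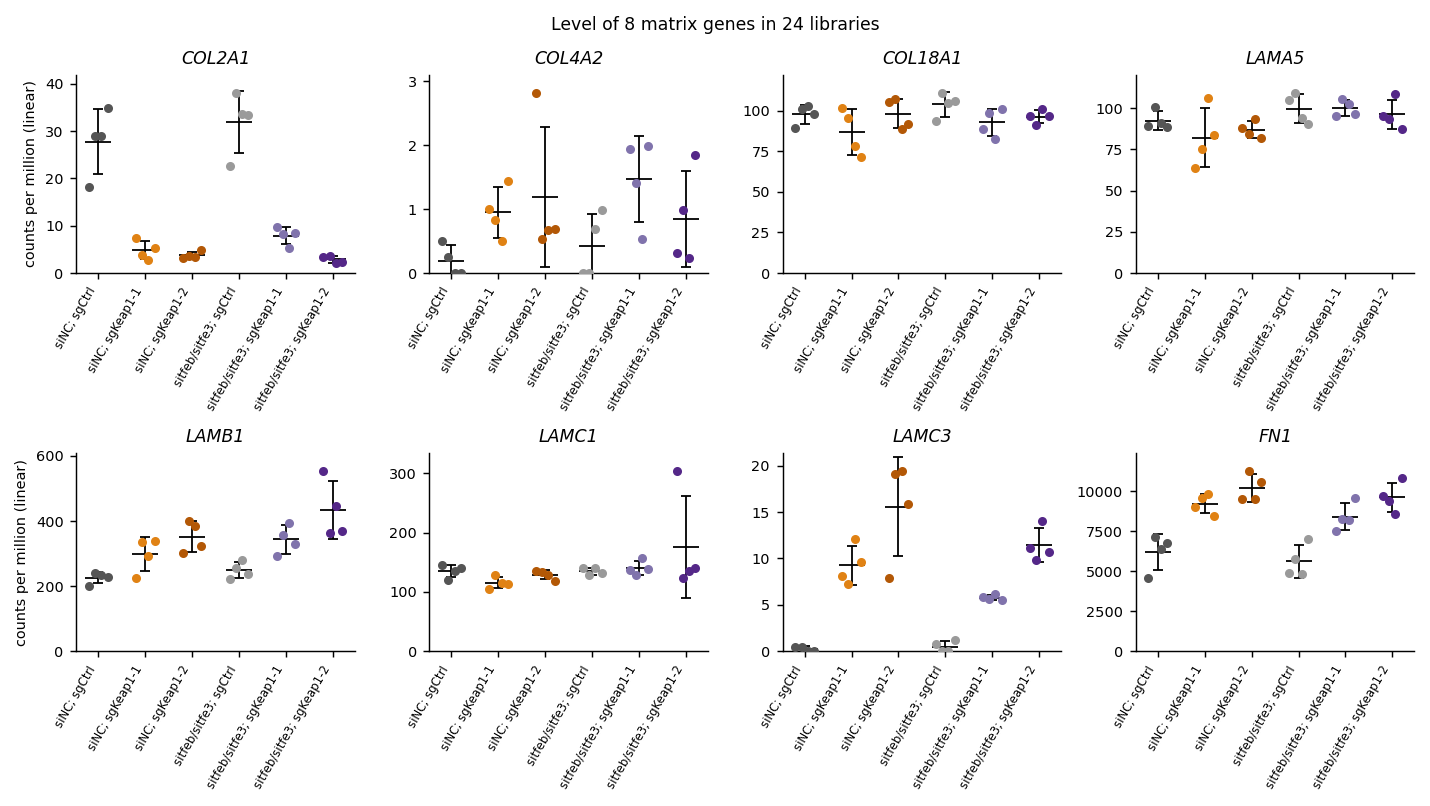
CPM (linear axis from 0, its range set for each gene) of the 8 genes with a row, with 1 point per library, replicates 1 to 4 from left to right, and black lines for the mean ± SD of 4 libraries (cut at 0). COL2A1 is at 18.3 CPM or more with sgCtrl and at 9.67 CPM or less with a KEAP1 guide, LAMC3 goes the other way, and 1 library of sitfeb/sitfe3; sgKeap1-2 sets the high mean of LAMC1.

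The other laminin chains and COL18A1 did not pass the threshold with either guide under either siRNA. LAMA5 means ranged from 82.1 to 99.96 CPM over the 6 groups, and COL18A1 means from 86.5 to 104 CPM. For LAMA5 the log2 fold changes under sitfeb/sitfe3 were 0.01 (95% interval -0.23 to 0.24) with sgKeap1-1 and -0.05 (-0.29 to 0.19) with sgKeap1-2. For COL18A1 they were -0.16 (-0.38 to 0.06) and -0.11 (-0.33 to 0.11). For both genes all neighbouring groups overlapped.

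LAMC1, which encodes the common gamma chain, had means of 116 to 140.3 CPM in 5 groups and of 176 ± 85.9 CPM (SD, n = 4) in sitfeb/sitfe3; sgKeap1-2. In that group replicate 1 had 983 reads (304 CPM) and the other 3 libraries 503 to 604 reads (124 to 139.9 CPM). It is the other library that stood apart. The log2 fold change with sgKeap1-2 under sitfeb/sitfe3 was 0.26 (SE 0.17, adjusted p = 0.306, limma) and changed to -0.02 when both libraries that stood apart were left out. The source of that library's deviation was not tested.

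COL4A2 had 0 to 10 reads in each of the 24 libraries and was not tested. The sgCtrl libraries had 2, 1, 0 and 0 reads under siNC and 0, 0, 3 and 4 under sitfeb/sitfe3. With sgKeap1-1 there were 4, 3, 2 and 6 reads under siNC and 7, 6, 2 and 9 under sitfeb/sitfe3, and with sgKeap1-2 there were 10, 2, 3 and 3 and then 1, 4, 1 and 8. Between a KEAP1 guide and sgCtrl with the same siRNA, the groups overlapped except for sgKeap1-2 under siNC, where the lowest library with the guide had 0.538 CPM and the highest control 0.508 CPM. The ratio of summed, depth-scaled counts to sgCtrl was 4.99 (95% counting interval 1.41 to 26.9) and 5.87 (1.71 to 31.1) under siNC, and 3.46 (1.45 to 9.52) and 2.03 (0.769 to 5.96) under sitfeb/sitfe3, in the order of the guides. These intervals cover counting error only.

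Over the 7 tested members, 3 were past the threshold with sgKeap1-1 under siNC, COL2A1 lower and LAMC3 and FN1 higher, where 10.9% of all tested genes were called. With sgKeap1-2 under siNC there were 4, with LAMB1 added, where 14.7% of all genes were called. Since these comparisons count as used in the choice, nothing is read from those counts. Under sitfeb/sitfe3, leaving out LAMC3 for the reason above, 3 of the other 6 members were called with each guide, COL2A1 lower and FN1 and LAMB1 higher, where 10.5% of all genes were called with sgKeap1-1 and 20.2% with sgKeap1-2. The members were chosen with these libraries known as well, so nothing is read from these counts either. The 2 comparisons under each siRNA share their 4 control libraries.

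**Figure D2:**
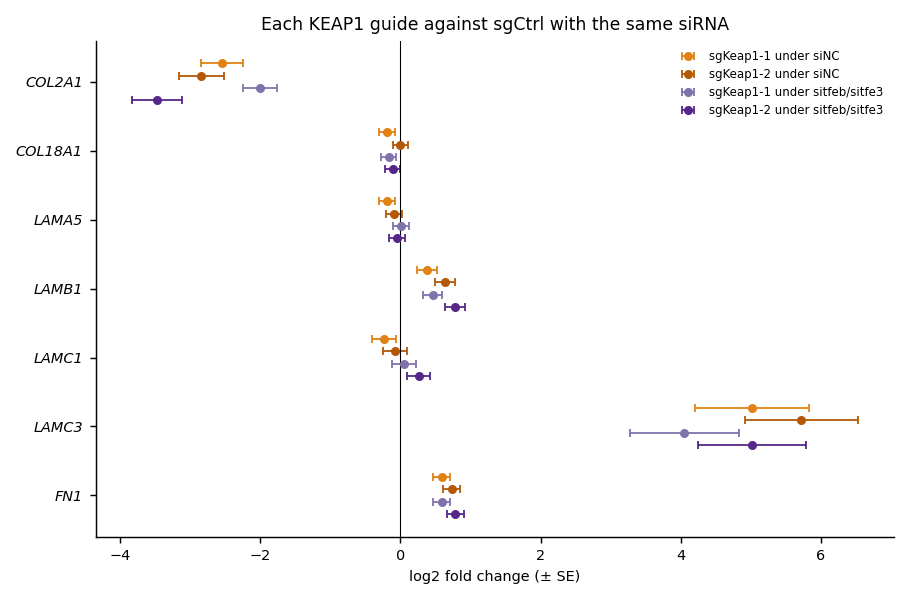
Log2 fold change (± SE, from the fit over all 24 libraries) of the 7 tested members for each KEAP1 guide against sgCtrl with the same siRNA. COL2A1 lies lowest, down to -3.47, and LAMC3 between 4.05 and 5.72, FN1 and LAMB1 lie between 0.38 and 0.79, and COL18A1, LAMA5 and LAMC1 lie between -0.23 and 0.26.

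The guides were then compared with each other, because a member that moved with the loss of KEAP1 was measured with 2 target sites. With sgKeap1-2 against sgKeap1-1, 0 of the 7 members were called under siNC by limma, with 1 at an unadjusted p below 0.05 (LAMC3) and 0 called by edgeR or DESeq2, where 0% of all genes were called by limma. Under sitfeb/sitfe3 it was 0 of 7 by limma, with 3 at an unadjusted p below 0.05 (COL2A1, LAMB1 and LAMC3), 0 by edgeR and 1 by DESeq2, where 0.00897% of all genes were called by limma. The difference in COL2A1 under sitfeb/sitfe3 was -1.47 on the log2 scale (SE 0.40, adjusted p = 0.415 by limma and 0.00733 by DESeq2), with 9 to 15 reads per library against 20 to 38. For LAMC3 the differences were 0.70 (95% interval 0.17 to 1.24) under siNC and 0.97 (0.34 to 1.59) under sitfeb/sitfe3. For FN1 they were 0.15 (-0.11 to 0.40) and 0.19 (-0.06 to 0.45).

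The knockdown of TFEB and TFE3 called none of the members in any guide background. In sgCtrl, 0 of 7 passed by limma, edgeR or DESeq2, with 0 at an unadjusted p below 0.05, where 0.0179% of all genes were called. In sgKeap1-1 it was 0 of 7 by the 3 tools, with 3 at an unadjusted p below 0.05 (COL2A1, LAMA5 and LAMC3), where 0.0897% of all genes were called. In sgKeap1-2 it was 0 of 7 by the 3 tools, with 1 at an unadjusted p below 0.05 (LAMB1), where 0.359% of all genes were called.

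The values behind these counts were small for most members. FN1 changed by -0.14 in sgCtrl, -0.14 in sgKeap1-1 and -0.09 in sgKeap1-2 on the log2 scale (SE 0.12 for each). COL2A1 was at 0.22 (SE 0.18), 0.75 (SE 0.34, adjusted p = 0.597, limma) and -0.42 (SE 0.45). LAMC3 was at -0.65 (SE 0.32, adjusted p = 0.617, limma) in sgKeap1-1, where its 4 knockdown libraries (5.53 to 6.15 CPM) all lay below the 4 siNC libraries (7.23 to 12.1 CPM), and at -0.39 (SE 0.25) in sgKeap1-2, where the groups overlapped. LAMC1 in sgKeap1-1 was likewise without overlap, at 129 to 157 CPM after knockdown and 105 to 128 CPM with siNC, and did not pass (0.28, SE 0.17, adjusted p = 0.704, limma).

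The difference of the KEAP1 effects between the siRNAs was tested as an interaction. For both guides 0 of 7 members passed by limma, edgeR or DESeq2, with 0 at an unadjusted p below 0.05, and 0% of all genes were called by limma. The interaction for FN1 was 0.00 (95% interval -0.36 to 0.36) with sgKeap1-1 and 0.05 (-0.31 to 0.41) with sgKeap1-2. For LAMB1 it was 0.08 (-0.33 to 0.48) and 0.15 (-0.26 to 0.55). For COL2A1 it was 0.54 (-0.26 to 1.34) and -0.63 (-1.63 to 0.36), and for LAMC3 -0.96 (-3.29 to 1.36) and -0.70 (-2.99 to 1.59), so a change of 2-fold between the siRNAs was within the interval for these low-count genes.

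**Figure D3:**
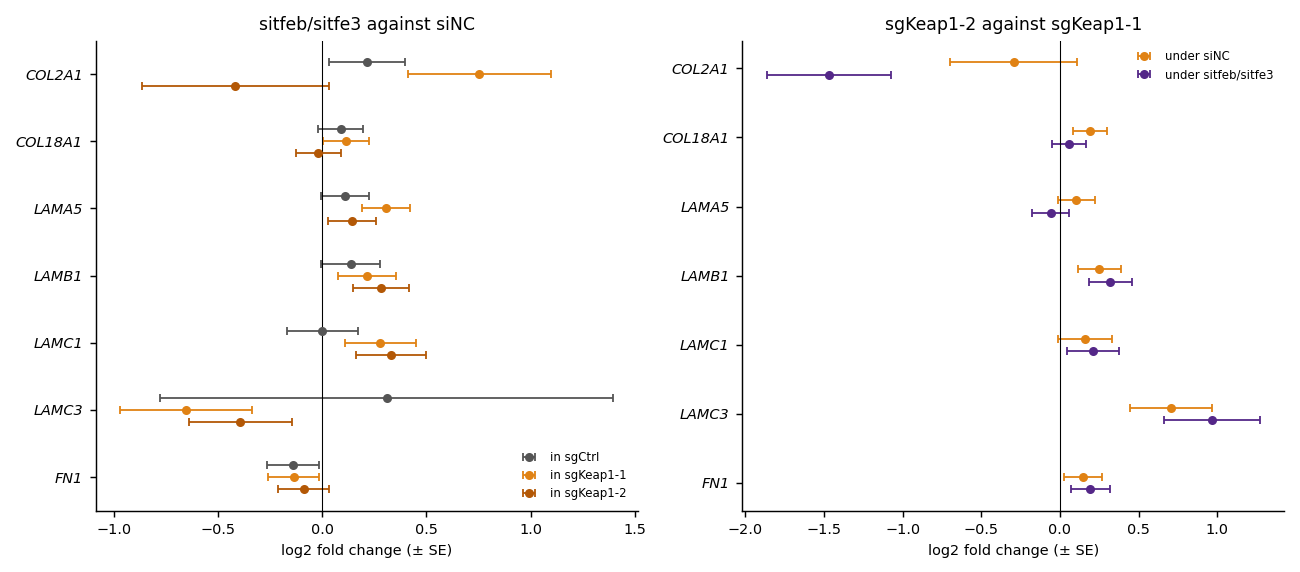
Log2 fold change (± SE) of the 7 tested members, on the left for sitfeb/sitfe3 against siNC in each guide background and on the right for sgKeap1-2 against sgKeap1-1 under each siRNA. No member passed the threshold of limma in these 5 comparisons, and the value farthest from 0 is COL2A1 at -1.47 on the right.

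Across the 24 libraries, the log2 CPM of COL2A1 and LAMC3 had a Pearson's r of -0.94, that of LAMC3 and FN1 0.87, that of COL2A1 and FN1 -0.83, and that of LAMB1 and FN1 0.68. After each group's mean was removed, the same pairs were at -0.35, 0.12, 0.28 and 0.12, so the relation lay between groups. LAMB1 and LAMC1 were at 0.47 over all libraries and 0.55 within groups, and at 0.07 and 0.30 without sitfeb/sitfe3; sgKeap1-2 replicate 1, the library highest of all 24 for both genes (a comparison chosen after the data were seen). These values are descriptions of libraries that share guide and siRNA within a group.

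**Figure D4:**
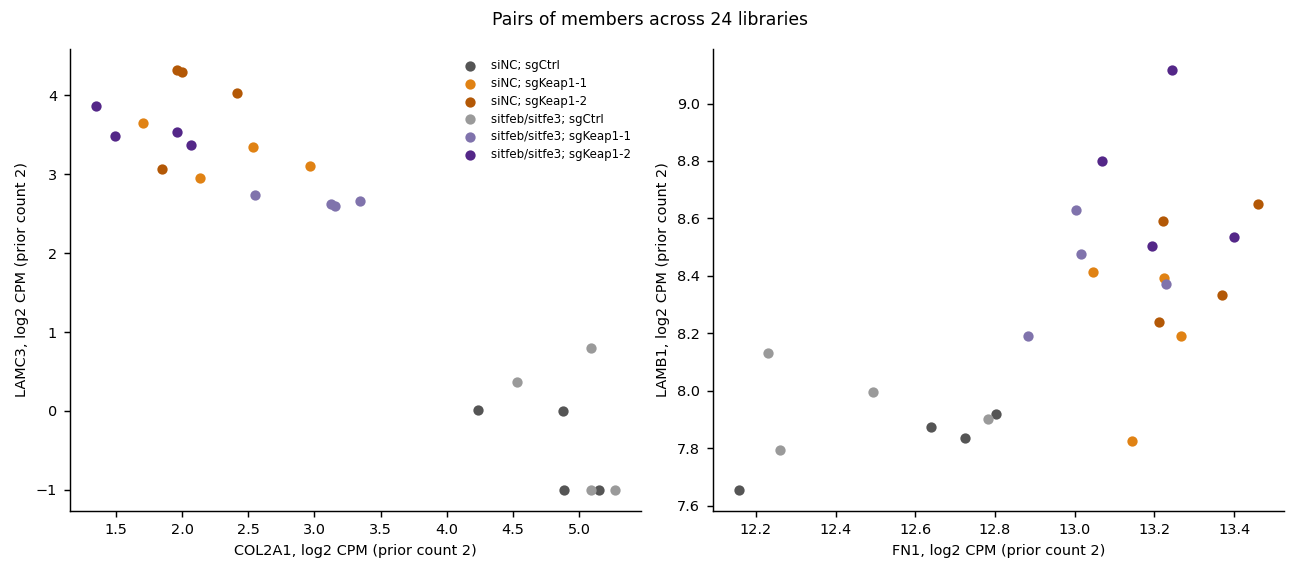
Log2 CPM (prior count 2) of LAMC3 against COL2A1 and of LAMB1 against FN1, with 1 point per library in the colour of its group. The 8 sgCtrl libraries form a separate cloud at high COL2A1 and low LAMC3, with r of -0.94 over all 24 libraries and -0.35 within groups.

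The genes whose log2 CPM ran most like each member over the 24 libraries differed from member to member. For COL2A1 they were MTTP (r = 0.97), which loads lipid onto apolipoprotein B, C2orf72 (0.97) and BEX1 (0.96). For LAMC3 they were PTGR1 (0.98), a reductase of lipid aldehydes and prostaglandins, ABCC3 (0.98), an efflux pump of the liver, and the long noncoding RNA LUCAT1 (0.97). For FN1 they were the transcription factor FOXP1 (0.96), the calcium-binding S100P (0.95) and the pseudogene transcript NMRAL2P (0.94). After each group's mean was removed, the values for COL2A1 were 0.58, 0.78 and 0.45, in the order named. Those for LAMC3 became 0.80, 0.81 and 0.71, and those for FN1 0.80, 0.78 and 0.78.

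For LAMB1 they were ITGA2 (0.92), the alpha chain of a collagen- and laminin-binding integrin, EIF4G3 (0.92), a translation initiation factor, and FAM107B (0.92). For LAMC1 they were SSB (0.93), the La RNA-binding protein, CDC27 (0.90), a subunit of the anaphase-promoting complex, and PAPOLA (0.89), a poly(A) polymerase, and without the library in which LAMC1 was highest these values were 0.72, 0.63 and 0.47. For COL18A1 they were TMEM60 (0.70), SLC51A (0.69), a subunit of a bile acid transporter, and ALG9 (0.65), a mannosyltransferase of glycoprotein synthesis. For LAMA5 they were CCAR2 (0.74), FRAS1 (0.74), a protein of the epithelial basement membrane, and IFT52 (0.73), which acts in cilia. Within groups the values were 0.75, 0.79 and 0.69 for LAMB1 and 0.61, 0.65 and 0.65 for COL18A1. Those for LAMA5 were 0.65, 0.60 and 0.66. Those for LAMC1 were 0.94, 0.92 and 0.92, and 0.83, 0.60 and 0.53 without the library in which it was highest.

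Besides the members, a wider set of 181 genes for other matrix proteins, their receptors, enzymes and regulators was examined, of which 108 had a row and 102 were tested. With sgKeap1-1 under siNC, 10 were higher and 16 lower, 25.5% of those tested against 10.9% of all genes. With sgKeap1-2 under siNC, 15 were higher and 18 lower (32.4% against 14.7%), and under sitfeb/sitfe3 the counts were 14 and 12 with sgKeap1-1 and 22 and 21 with sgKeap1-2 (25.5% against 10.5% and 42.2% against 20.2%). The median log2 fold change of the 102 genes was between -0.01 and 0.06 in these 4 comparisons, and that of all genes between -0.02 and 0.01, so the set moved in both directions.

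Among proteins that join or hold the basement membrane, those that passed the threshold were lower with the KEAP1 guides. Of all tested genes, 10.9% were called with sgKeap1-1 and 14.7% with sgKeap1-2 under siNC. Of 10 tested linkers, 0 were higher by limma and 4 were lower with each guide under siNC, namely FREM1 (-1.77 and -2.16), a protein of the epidermal basement membrane, FBLN1 (-0.41 and -0.51), NID1 (-0.52 and -0.53), which bridges laminin and type IV collagen, and SMOC1 (-0.50 and -0.68). Under sitfeb/sitfe3, FREM1, FBLN1 and SMOC1 were again called lower with both guides, and NID1 did not pass with either (-0.39 and -0.43). In sitfeb/sitfe3; sgKeap1-2, NID1 was at 78.6 ± 34.1 CPM (SD, n = 4), with a highest library at 129 CPM. The median was 64.5 CPM in that group and 97.6 CPM in sitfeb/sitfe3; sgCtrl. The other laminin chains tested were LAMB2 and LAMB3. LAMB3, also a beta chain gene, had 3 reads in all with sgCtrl, 22 with sgKeap1-1 and 27 with sgKeap1-2 under siNC. Under sitfeb/sitfe3 it had 7, 32 and 40, and it was not called with either guide under either siRNA. LAMB2 was called lower with both guides under sitfeb/sitfe3 alone (-0.60 and -0.55), against -0.44 and -0.27 under siNC, opposite in sign to LAMB1, the beta chain gene among the members. That pair of genes was set side by side after their values were seen, and the interaction of LAMB2 with the siRNA was -0.16 and -0.27 (adjusted p = 0.9997 and 0.991, limma).

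Among receptors of the members' products, 2 of 16 tested genes were higher and 2 lower with sgKeap1-1 under siNC, and 3 higher and 1 lower with sgKeap1-2. Over all tested genes, 10.9% and 14.7% were called there, in the order of the guides. ITGA2 (0.76 and 0.85) and the syndecan SDC3 (1.28 and 1.52) were higher with both guides, and BCAM (-1.14 and -1.20), the Lutheran receptor that binds the laminin alpha chain encoded by LAMA5, was lower with both. LAMA5 itself stood at -0.19 and -0.09 in these comparisons. ITGA2 was at 81.0 ± 7.31 CPM (SD, n = 4) with siNC; sgCtrl, 142 ± 39.7 with sgKeap1-1 and 148 ± 29.6 with sgKeap1-2.

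Other collagens were few. Of the fibrillar types COL27A1 was lower with both guides under siNC (-0.79 and -0.84) and under sitfeb/sitfe3 (-0.82 and -0.94), the same direction as COL2A1, the fibrillar collagen among the members. COL6A1 was higher with both guides under siNC (0.93 and 1.08) and at -0.16 and 0.35 under sitfeb/sitfe3, with interactions of -1.09 and -0.73 that did not pass (adjusted p = 0.9997 and 0.991, limma). COL1A1, a chain of type I collagen, was called higher with both guides under sitfeb/sitfe3 (1.08 and 1.03). Under siNC it was not called, with means of 3.63 CPM with sgCtrl, 3.91 CPM with sgKeap1-1 and 3.72 CPM with sgKeap1-2. Its interaction did not pass with either guide. It was also the 1 gene of the wider set that the knockdown called in more than 1 background, with log2 fold changes of 2.22 in sgKeap1-1 and 2.14 in sgKeap1-2 (adjusted p = 0.0367 and 0.0250, limma), and 1.12 in sgCtrl (adjusted p = 0.942, limma). In sgKeap1-1 its level was 3.91 ± 2.49 CPM (SD, n = 4) with siNC and 16.7 ± 5.24 CPM with sitfeb/sitfe3. In sgKeap1-2 it was 3.72 ± 1.77 and 16.2 ± 6.92 CPM, and in sgCtrl 3.63 ± 1.25 and 8.17 ± 3.58 CPM. Reads of COL1A1 were few, with 8 to 27 per library in siNC; sgKeap1-1. The other gene the knockdown called in the wider set was HSPG2, the basement membrane proteoglycan perlecan, in sgKeap1-2 alone (0.72, adjusted p = 0.0492, limma), and it is named after its values were seen.

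SOX9 and SOX6, transcription factors that switch on COL2A1 in cartilage, were both lower with both guides under siNC, SOX9 at -0.42 and -0.41 and SOX6 at -1.31 and -1.44. Under sitfeb/sitfe3, SOX6 was again called lower with both guides (-0.74 and -1.14). SOX9 was called lower there with sgKeap1-2 (-0.32) and did not pass with sgKeap1-1 (-0.16). Their part in the change of COL2A1 was not tested. ANKRD1, a target of the Hippo pathway, was higher with both guides under siNC (1.31 and 1.42). These 3 come from 15 tested regulators, of which 1 was higher and 2 lower with sgKeap1-1 under siNC, and 3 higher and 3 lower with sgKeap1-2. The share of all tested genes called there was 10.9% and 14.7%, in the order of the guides. COL2A1, SOX9 and MATN3 are also the 3 of 5 cartilage markers with a row, and ACAN and COMP had none. The summed level of the 3 was 530.1 to 752 CPM in siNC; sgCtrl, 288 to 508 CPM in siNC; sgKeap1-1 and 367 to 434 CPM in siNC; sgKeap1-2. Under sitfeb/sitfe3 it was 689 to 773 CPM with sgCtrl, 556 to 623 CPM with sgKeap1-1 and 399 to 487 CPM with sgKeap1-2.

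Among other adhesive and elastic matrix proteins, 1 of 12 was higher and 5 lower with sgKeap1-1 under siNC, and 2 higher and 6 lower with sgKeap1-2. In these comparisons 10.9% and 14.7% of all tested genes were called. Osteopontin (SPP1), an adhesive phosphoprotein, was the higher one with both (2.55 and 2.96). It went from 197 ± 15.1 CPM (SD, n = 4) with siNC; sgCtrl to 1180 ± 282 with sgKeap1-1 and 1535 ± 151 with sgKeap1-2. Lower with both were vitronectin (VTN, -1.32 and -1.51), MATN3 (-0.87 and -0.88) and the fibrinogen chains FGA (-0.38 and -0.49), FGB (-0.44 and -0.41) and FGG (-0.77 and -0.54). With sgKeap1-1 under sitfeb/sitfe3, MATN3 (-0.33) and FGG (-0.48) did not pass. Vitronectin and the fibrinogens moved against FN1, which liver cells also secrete, and the summed hepatocyte markers, which include FGB, moved with them. The part of that marker change in the values of the members was not tested.

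Matrix proteases and their inhibitors had 4 of 13 genes higher and 1 lower with each guide under siNC, where 10.9% (sgKeap1-1) and 14.7% (sgKeap1-2) of all tested genes were called. MMP2, a gelatinase, was at 2.48 and 2.45 from 1.33 ± 0.922 CPM (SD, n = 4), the inhibitors TIMP1 and TIMP2 at 1.22 and 1.20 and at 0.89 and 0.94, the lysosomal protease CTSB at 0.70 and 0.99, and TIMP3 at -0.56 and -0.66. The MMP2 level in siNC; sgCtrl was near that of 3 counts (0.664 to 0.928 CPM). MMP2 may have passed the filter only through groups with a KEAP1 guide, so its call among the 4 higher genes is a description. Of 24 genes for collagen folding, export and crosslinking, 1 was higher and 1 lower with sgKeap1-1 under siNC and 2 higher and 2 lower with sgKeap1-2. Those counts are near the shares of all genes, so nothing is read from them about the list. COLGALT2, which adds galactose to collagen, was higher with both (1.17 and 1.24), and PCOLCE2, an enhancer of procollagen processing, lower (-0.98 and -0.76).

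**Figure D5:**
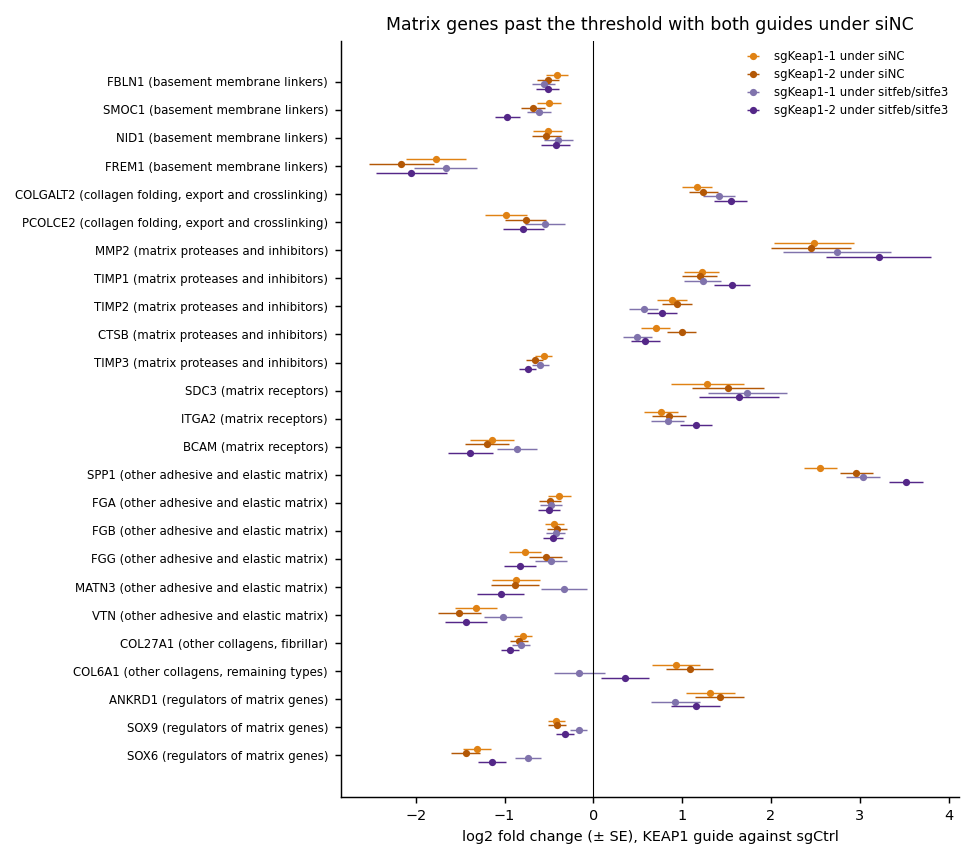
Log2 fold change (± SE) of the 25 matrix genes outside the member list that were past the threshold in 1 direction with both KEAP1 guides under siNC (at most 5 per list and direction), shown for all 4 comparisons with sgCtrl. SPP1 and MMP2 are highest and FREM1 lowest, and COL6A1 is at 0.93 and 1.08 under siNC but at -0.16 and 0.35 under sitfeb/sitfe3. MMP2 starts from very few reads in siNC; sgCtrl, so its values are a description.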

How the data were processed

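RNA of 24 HepG2 libraries in 6 groups was analysed. Per the labels and the study's methods, QuantSeq 3′ libraries were read single-end, trimmed with cutadapt 1.16, aligned with STAR 2.7.5b and assigned to genes with featureCounts 1.6.3 (versions from the submitters' processing notes). The methods name hg19 and the labels hg38, and the annotation file, strand setting and low-count rule were not given in the sources used here. The values the authors deposited are raw read counts, not normalized, 1 column per library.

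Of 13446 rows, 1414 without a gene ID (1.35% to 2.57% of reads) were left out, 43 rows sharing 20 IDs were summed, and 160 IDs with identical counts were kept as 78 features. Gene positions are those of GENCODE on GRCh37. In R 4.3.3, the voom method of limma 3.58.1 was run with edgeR 4.0.16, after filterByExpr and TMM scaling as 1 fit of 6 group means over 24 libraries, with Benjamini-Hochberg adjustment over 11152 genes and a threshold of 0.05. Tests were two-sided. The script was tested on simulated data. CPM use the TMM-scaled library size, and log2 CPM add a prior count of 2. A floor of 3 counts was used, and counting intervals (95%, exact) cover counting error only, since reads carry no molecular identifier.

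The members and lists were chosen with earlier results of these data known. Named genes are the members, KEAP1, TFEB and TFE3, the 3 genes most correlated with each tested member, and up to 5 genes per list and direction called with both guides under siNC or in at least 2 of 3 knockdown backgrounds. Alternatives included edgeR's quasi-likelihood test and DESeq2 1.42.0.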

Additional observations from a re-analysis of the deposited data

Results flagged for a closer look

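Within each of the 48 combinations of a member and a group of 4 libraries, the library farthest from its neighbour was compared with the range of the group by Dixon's 95% criterion, which chance passes in about 1 of 20 groups, and 3 values passed. LAMC1 in sitfeb/sitfe3; sgKeap1-2 replicate 1 was at 304 CPM (983 reads), against 124 to 139.9 CPM in the other 3 libraries. COL4A2 in siNC; sgKeap1-2 replicate 1 was at 2.82 CPM (10 reads), against 0.538 to 0.690 CPM. LAMA5 in siNC; sgCtrl replicate 2 was at 101 CPM (404 reads), against 88.7 to 90.7 CPM. No interaction of a KEAP1 guide with the knockdown passed the threshold for any tested member by limma.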

How the results depend on the processing

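All 11 counts of members called were recomputed under 11 alternatives and without each of the 24 libraries. Only 1 count changed by over 1.5 times, sgKeap1-2 against sgKeap1-1 under sitfeb/sitfe3, which was 1 with DESeq2 (COL2A1, -1.49) and 0 by limma. Of 846 refitted values, 18 changed sign, and none was past the threshold. LAMC1 with the knockdown in sgCtrl was -0.0022 with edgeR and -0.000251 with DESeq2. With sample quality weights, COL18A1 with sgKeap1-2 under siNC was -0.041 and the interaction of LAMB1 with sgKeap1-1 was -0.0089. The interaction of FN1 with sgKeap1-1 was -0.0018 at a mean of at least 10 counts, -0.00019 with only the groups compared, -0.0039 with unnamed rows in the library size and -0.011 without both libraries that stand apart. Without those libraries LAMC1 was -0.024 with sgKeap1-2 under sitfeb/sitfe3 and -0.073 for sgKeap1-2 against sgKeap1-1 there, LAMA5 was -0.012 for that guide comparison under siNC, and the interaction of LAMB1 with sgKeap1-1 was -0.056. Without the 6 libraries numbered 1, COL18A1 was -0.073 with sgKeap1-2 under siNC and 0.0096 with the knockdown in sgKeap1-2, LAMC1 was -0.012 with sgKeap1-2 under sitfeb/sitfe3 and -0.085 between the guides there, LAMA5 was -0.016 between the guides under siNC, and the interaction of LAMB1 with sgKeap1-2 was -0.052. The cause was not tested.

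Leaving out single libraries turned the sign of values near 0. COL18A1 ranged from -0.044 to 0.054 (sgKeap1-2 under siNC), -0.073 to 0.11 (interaction, sgKeap1-1), -0.082 to 0.016 (knockdown in sgKeap1-2) and -0.0054 to 0.084 (between guides under sitfeb/sitfe3). FN1 ranged from -0.078 to 0.15 and -0.039 to 0.20 (interactions). LAMA5 ranged from -0.032 to 0.054 (sgKeap1-1 under sitfeb/sitfe3), -0.054 to 0.069 (interaction, sgKeap1-2) and -0.010 to 0.23 (between guides under siNC), and LAMB1 from -0.051 to 0.14 (interaction, sgKeap1-1). LAMC1 ranged from -0.0041 to 0.091 and -0.024 to 0.39 (sgKeap1-1 and sgKeap1-2 under sitfeb/sitfe3), -0.049 to 0.032 (knockdown in sgCtrl) and -0.073 to 0.34 (between guides under sitfeb/sitfe3), and LAMC3 from -0.30 to 0.87 (knockdown in sgCtrl).

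Each replicate number goes with 1 prefix of the sample descriptions in all 6 groups, but the labels do not say what the prefix marks. Of 60 same-numbered pairs 35 had a correlation of deviations over 0.1 (-0.35 to 0.58), short of every pair, so the numbers were not used as a pairing. In 50 of 60 the same-numbered correlation was above the mean of the others, a hint from the data of shared sets. With the replicate block 0 of 77 member values changed call, and calls over all genes were 4 and 30 for the knockdown in sgCtrl and sgKeap1-1 and 2 and 11 between the guides. Counts of all genes called ranged from 766 to 1748 for sgKeap1-1 under siNC (1218 in the limma fit), 1136 to 1923 under sitfeb/sitfe3 (1170), 2 to 13 (2), 1 to 50 (10) and 11 to 109 (40) for the knockdown in sgCtrl, sgKeap1-1 and sgKeap1-2, and 0 to 9 (0) and 0 to 18 (1) between the guides. Depth limits COL2A1, LAMC3 and COL4A2, with at most 158, 86 and 10 reads per library.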
